A study of Mus musculus with 18 samples.

Results

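The genes described are the 10 G1 cyclins, cyclin-dependent kinases (CDKs) and CDK inhibitors of mouse NIH3T3 cells that were listed by symbol: Ccnd1, Ccnd2, Ccnd3, Ccne1, Ccne2, Cdk2, Cdk4, Cdk6, Cdkn1b and Cdkn2c. All 10 were found in each of the 18 libraries, among 20207 genes, and all 10 were among the 12731 genes tested. NIH3T3 is an established line of mouse embryo fibroblasts, and mRNA-seq was used to ask how its transcript levels responded to heat shock (HS) and to tunicamycin, an inhibitor of N-glycosylation that causes unfolded proteins to collect in the endoplasmic reticulum (ER). The 6 groups of 3 libraries were an unperturbed reference (0 min), HS collected at 45 and 135 min, and tunicamycin (Tu) collected at 45, 135 and 405 min. HS was not collected at 405 min in the libraries analysed here. Unperturbed libraries were available at 0 min only. In comparisons with the reference or between times, stress and time in culture therefore cannot be told apart. Cells of every group, the reference included, stably carried DD-sfGFP, a destabilizing domain fused to superfolder GFP, and kept its stabilizing ligand Shield-1, so that the domain was folded. The line had been sorted for bright cells, and therefore stands for 1 engineered fibroblast population. The labels call the 3 libraries of a group replicates without saying whether they came from separate cultures, so p-values measure the spread between these libraries, which may be technical.

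D-type cyclins (Ccnd1, Ccnd2 and Ccnd3) bind and activate Cdk4 and Cdk6 when growth factors are present, and these kinases phosphorylate the retinoblastoma protein, which frees E2F transcription factors. E2F then raises transcription of cyclin E (Ccne1 and Ccne2), whose complexes with Cdk2 carry cells from G1 into S phase. Cdkn1b encodes p27, an inhibitor of cyclin E-Cdk2, and Cdkn2c encodes p18, an inhibitor of the INK4 class that binds Cdk4 and Cdk6. In ER stress, fibroblasts are known to stop in G1 with less cyclin D1 protein, because the ER kinase PERK lowers its translation, a step that mRNA levels do not report.

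Promoter sequences are shown for 3 of the 4 genes in which a searched motif was found, 1 for each motif found, so that the results below can be set beside them. The table of RefSeq promoters used here had windows for 7 of the 10 genes (9 windows). Ccnd1, Ccnd2 and Ccne2 were not matched in it and were not searched. Each window covers the 250 bases before a transcription start of GRCm38.p6, reads 5′ to 3′ along the gene, and was found once without mismatch in mm9, the build of the files. Capitals mark matches on either strand to a motif. The motifs were E2F (TTTCCCGC, TTTGGCGC, TTTCGCGC or TTTGCCGC), the E box (CACGTG), CRE (TGACGTCA), the C/EBP-ATF composite (TGATGCAA) and the heat shock element, given by the triplets TTC, GAA and TTC, or GAA, TTC and GAA, each parted by any 2 bases. No searched motif contains another.
Ccnd3, mm9 chr17:47730166-47730415, plus strand, heat shock element: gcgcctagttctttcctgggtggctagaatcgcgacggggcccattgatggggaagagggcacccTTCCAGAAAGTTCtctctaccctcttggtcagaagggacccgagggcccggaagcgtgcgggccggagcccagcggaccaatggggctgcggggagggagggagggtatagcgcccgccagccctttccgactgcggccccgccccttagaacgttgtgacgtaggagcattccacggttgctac
Cdk4, mm9 chr10:126500341-126500590, plus strand, E boxes: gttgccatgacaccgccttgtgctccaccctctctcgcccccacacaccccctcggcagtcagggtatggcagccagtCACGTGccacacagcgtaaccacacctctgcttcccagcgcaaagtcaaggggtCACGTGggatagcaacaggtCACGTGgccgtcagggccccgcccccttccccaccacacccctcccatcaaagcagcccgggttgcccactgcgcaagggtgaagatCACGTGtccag
Cdk2, mm9 chr10:128142108-128142357, minus strand, E2F: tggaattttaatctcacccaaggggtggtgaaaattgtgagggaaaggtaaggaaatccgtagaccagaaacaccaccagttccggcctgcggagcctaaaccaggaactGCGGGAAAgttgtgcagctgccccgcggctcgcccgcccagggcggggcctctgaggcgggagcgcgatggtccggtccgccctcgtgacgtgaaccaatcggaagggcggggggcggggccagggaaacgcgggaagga
The Ccnd3 and Cdk2 windows end next to the start of the gene in the files, while the Cdk4 window ends upstream of it, at another start. The Ccnd3 window shown held a heat shock element 185 to 173 bases before the start, as did 0.466% of 32851 mouse promoter windows of this length. Cdk4 carried 4 E boxes, the nearest 11 to 6 bases before the start. At least 1 E box was present in 6.02% of promoters and at least 4 in 7 promoters (0.0213%). The E2F match of Cdk2 lay 140 to 133 bases before the start, read on the opposite strand, and 1.86% of promoters held one. The other Ccnd3 window, at chr17:47641750-47641999 (mm9, plus strand), held no match. Cdk6 held 1 E box, and none of the 9 windows matched CRE (1.55% of promoters) or the C/EBP-ATF composite (0.791%). These matches describe letters and were not tested as binding sites.

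Positions of the genes are those of the files (mm9), over the whole gene span. The D cyclins are at chr7:152115836-152125830 (Ccnd1), chr6:127075727-127101066 (Ccnd2) and chr17:47730416-47736637 (Ccnd3). The E cyclins are at chr7:38883003-38892509 (Ccne1) and chr4:11118856-11131926 (Ccne2). For Ccne2 this span was given in 17 libraries, and 1 library gave chr4:11118501-11131829. The kinases are at chr10:128134995-128142107 (Cdk2), chr10:126500659-126504338 (Cdk4) and chr5:3344312-3522225 (Cdk6). Cdkn1b is at chr6:134870419-134875543 and Cdkn2c at chr4:109333481-109337977.

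In the reference, levels per length (RPKM, reads scaled by gene length and library total) set Cdk4 highest with a mean of 301 (lowest 235.9, highest 334.4), followed by Ccnd1 at 140 (127.2 to 153.5). Ccnd3 (45.2 to 54.2) and Ccnd2 (28.9 to 41.1) came next without overlap. Below them, the ranges of neighbours overlapped from Ccne1 (17.0 to 28.8) through Cdkn2c (15.6 to 23.8), Cdkn1b (11.8 to 18.6), Cdk2 (8.49 to 16.8) and Cdk6 (5.73 to 10.2). The gap between Ccnd2 and Ccne1 was under 1 RPKM, smaller than the SD of either gene. Ccne2 was lowest at 0.511 to 2.14 RPKM. These unstressed fibroblasts thus held their D cyclin mRNA mostly as Ccnd1 and their D cyclin kinase mRNA mostly as Cdk4.

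The libraries held 33415592 to 66478268 reads on genes, and a member's count was between 58 (Ccne2) and 38620 (Cdk4) reads. All 10 fibroblast markers were present in every library, the lowest being S100a4 at 45.4 CPM, while 7 of 8 epithelial, blood and endothelial markers, Epcam and Ptprc among them, stayed at or below 0.643 CPM. The remaining one, Cd68, had 5.46 to 8.75 CPM over the 18 libraries. The heat shock gene Hspa1b and the ER stress gene Ddit3 were above the reference in every library of HS and of Tu, respectively. Ddit3 was above it in every HS library too, while Hspa5, another ER stress gene, was below it at Tu 135 min (333 to 491 against 656 to 735 CPM). Within groups, however, libraries stood apart along 1 axis that held 74.0% of the within-group spread and followed transcript GC content (Spearman 0.70 across genes). HS 45 min replicate 3, HS 135 min replicates 1 and 2, Tu 135 min replicate 1, Tu 45 min replicate 3 and reference replicate 1 stood apart from their groups along it. HS 45 min replicate 3 also had an Hspa1b level of 46.0 CPM against 280 and 223 CPM in the other 2. Its levels of the heat shock genes Hsph1 (499 CPM) and Dnajb1 (197 CPM), however, were near those of replicate 1 (504 and 204 CPM). HS 135 min replicate 1 likewise had a low Hspa1b level, 263 against 1142 and 1214 CPM. Its Hsph1 level was the highest of its group (2717 CPM). Because bulk RNA was measured, fewer cells with a transcript and less of it per cell cannot be told apart.

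**Figure D1:**
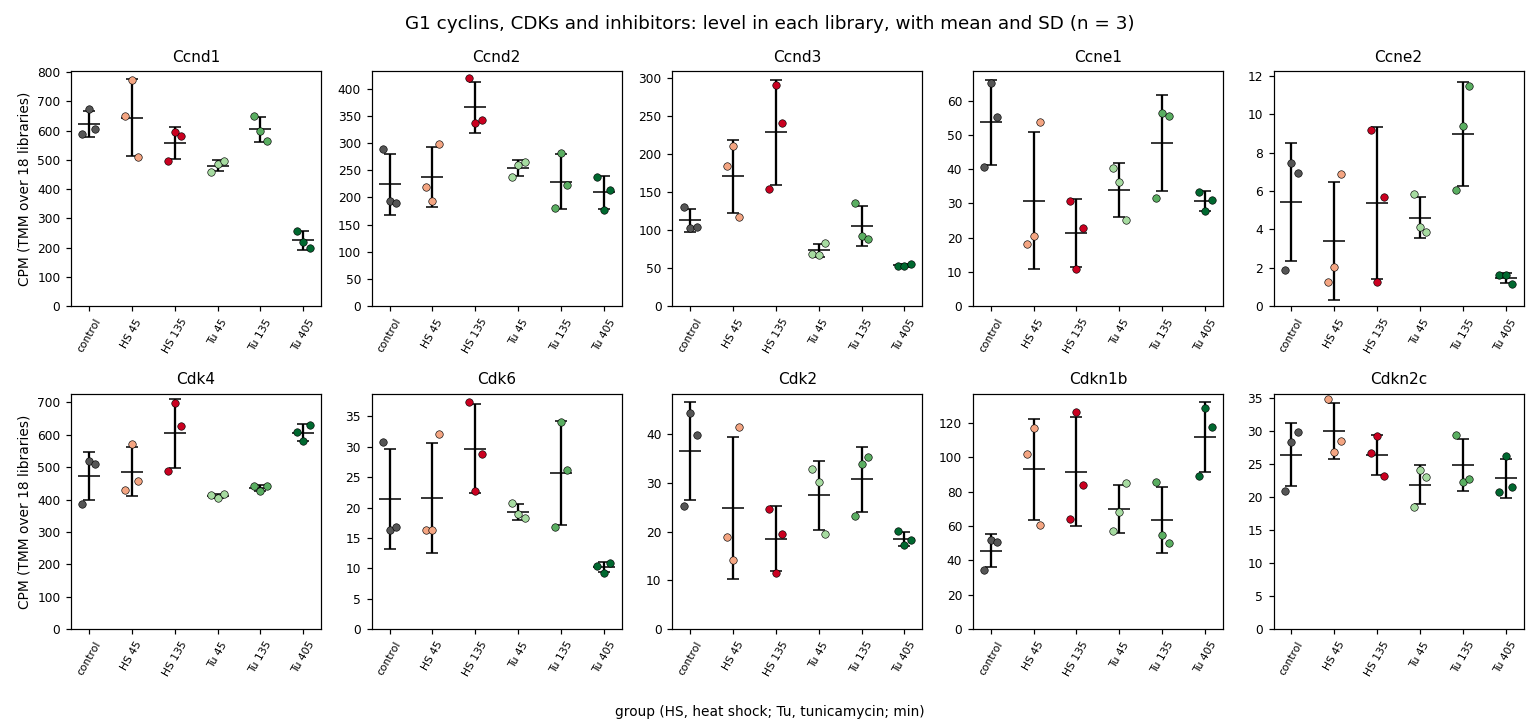
Level of each of the 10 genes in CPM (reads scaled by library total and TMM over the 18 libraries; linear axes from 0) in every library of the 6 groups. Points are libraries, horizontal marks the means and bars the SD (n = 3); Ccnd1, Ccnd3, Ccne2 and Cdk6 lay below all reference libraries at 405 min of tunicamycin, and Cdkn1b lay above them.

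The clearest change came at 405 min of tunicamycin, when 6 of the 10 genes were repressed and 1 was induced relative to the reference. Transcripts of Ccnd1, Ccnd3, both E cyclins, Cdk6 and Cdk2 fell, and that of the inhibitor Cdkn1b rose. Called here and below means an adjusted p under 0.05 from the edgeR quasi-likelihood test, adjusted over all genes tested. Much of the transcriptome was called at this late time: 46.8% of all genes tested, made up of 23.3% higher and 23.5% lower, so the 7 of 10 stand beside a high background. The median log2 fold change of the 10 genes was -0.87, beside -0.01 over all genes tested.

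Ccnd1, the main D cyclin of these fibroblasts, had 589, 674 and 607 CPM in the 3 reference libraries and 258, 218 and 198 CPM at 405 min of tunicamycin. The groups were far apart. The transcript fell by 1.45 on the log2 scale (standard error 0.142, adjusted p = 0.000153, edgeR), a 2.73-fold decrease. Ccnd3 measured 131, 103 and 104 CPM in the reference and 52.6, 52.8 and 55.5 CPM at 405 min. Each tunicamycin library lay below each reference library, and Ccnd3 fell by 1.05 (standard error 0.136, adjusted p = 0.000568, edgeR). Ccnd2, the remaining D cyclin, behaved otherwise. Its levels were 289, 193 and 190 CPM in the reference and 237, 176 and 214 CPM at 405 min, with overlap. The log2 difference of Ccnd2 was -0.08, with a 95% interval of -0.54 to 0.38, and without reference replicate 1 it was 0.16. A fall of Ccnd2 as large as that of Ccnd1 or Ccnd3 lies outside this interval.

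The E cyclins, which activate Cdk2 late in G1, were both lower. Ccne1 had 40.6, 65.1 and 55.1 CPM in the reference against 33.4, 27.7 and 31.1 CPM at 405 min, without overlap. It fell by 0.78 (standard error 0.180, adjusted p = 0.00839, edgeR). Ccne2 showed 1.88, 7.46 and 6.93 CPM in the reference, where replicate 1 was far below the others, and 1.66, 1.62 and 1.17 CPM at 405 min. Although reference replicate 1 was close to the tunicamycin libraries, the groups did not overlap, and the transcript fell by 1.85 (standard error 0.457, adjusted p = 0.0113, edgeR). Without that library the log2 difference of Ccne2 was -2.25. Ccne2 overlaps Ints8 over 5622 bases and Ccnd3 overlaps Bysl over 358 bases, and the sources do not say whether reads were counted by strand, so reads of these pairs may be shared.

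Among the kinases, Cdk6 had 30.9, 16.4 and 16.9 CPM in the reference and 10.4, 9.28 and 10.9 CPM at 405 min. All tunicamycin libraries were lower (log2 difference -1.05, standard error 0.257, adjusted p = 0.0108, edgeR). Without reference replicate 1, which was the high one, the difference of Cdk6 was -0.68 and still called. Cdk2, the partner of cyclin E, had 25.2, 44.3 and 39.8 CPM in the reference and 20.1, 17.2 and 18.3 CPM at 405 min. The groups did not overlap, and Cdk2 fell by 0.95 (standard error 0.205, adjusted p = 0.00618, edgeR). Cdk4, by far the most abundant kinase mRNA of the set, was not lower: it had 387, 520 and 511 CPM in the reference and 609, 580 and 632 CPM at 405 min. Every tunicamycin library was above every reference library, but the log2 difference of 0.38 (95% interval 0.05 to 0.72) missed the threshold (adjusted p = 0.0618, edgeR), and it passed with the DESeq2 Wald test and without reference replicate 1.

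Of the inhibitors, Cdkn1b rose from 34.7, 51.7 and 50.6 CPM in the reference to 89.1, 128 and 118 CPM at 405 min of tunicamycin. The 3 stressed libraries were well above the reference, and the log2 fold change was 1.32, or 2.49-fold (standard error 0.199, adjusted p = 0.00117, edgeR). Cdkn2c had 21.0, 28.3 and 30.0 CPM in the reference and 20.8, 26.2 and 21.6 CPM at 405 min. These levels overlapped, and the log2 difference of -0.19 had a 95% interval of -0.58 to 0.20. Without reference replicate 1, Cdkn2c was called at -0.32. In all, 8 of the 10 genes had groups that did not overlap at 405 min, beside 58.7% of all genes tested.

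No 405 min call was lost when any 1 of the 6 libraries was left out. With all 6 groups in 1 fit that shares the spread, the calls of Ccne1 and Cdk2 were lost, leaving 5 members called beside 31.9% of all genes. With an offset for transcript GC content, 7 members were called beside 53.0% of all genes, and the differences of Ccnd1, Ccnd3 and Cdkn1b were -1.52, -1.24 and 1.44.

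**Figure D2:**
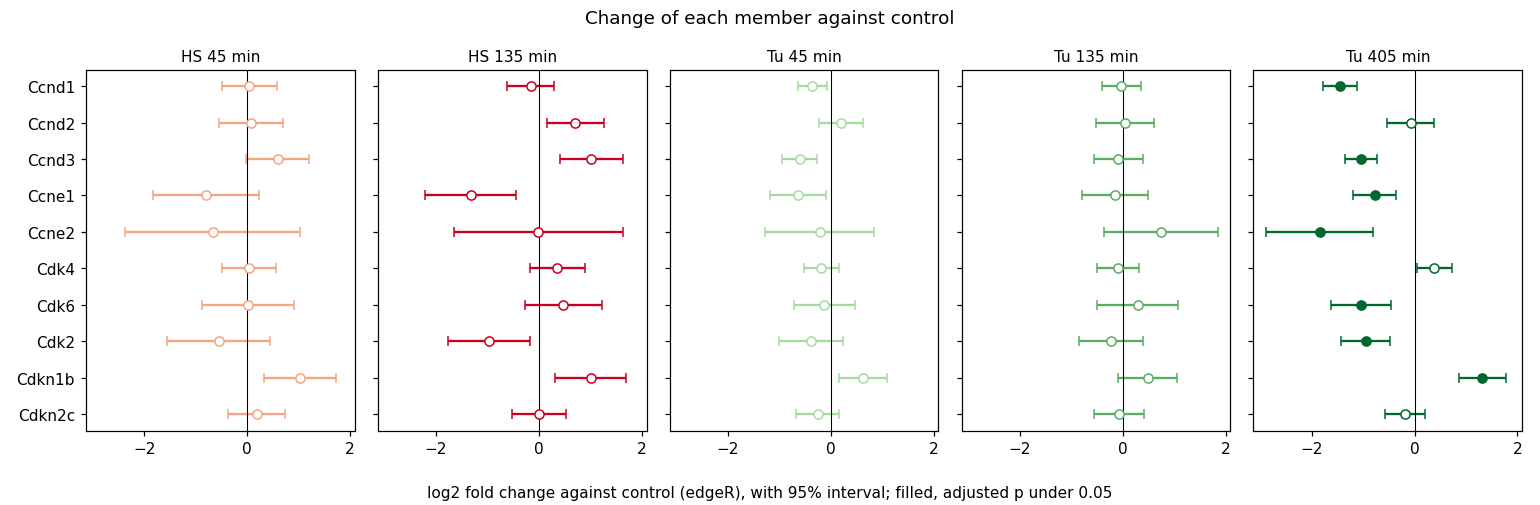
Log2 fold change against the reference for the 10 genes at each of the 5 stress times, from edgeR, with 95% intervals; filled points were called (adjusted p under 0.05). Calls were made at 405 min of tunicamycin alone, where Ccnd1, Ccnd3, Ccne1, Ccne2, Cdk6 and Cdk2 lay below 0 and Cdkn1b above it.

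The late change was compared with the earlier tunicamycin times. Against Tu 135 min, 7 members were again called at 405 min, 5 lower and 2 higher, beside 43.7% of all genes tested (21.4% higher and 22.4% lower). Ccnd1, at 651, 598 and 565 CPM at 135 min, fell by 1.45 by 405 min (standard error 0.148, adjusted p = 0.000320, edgeR). Ccne2 dropped from 6.07, 9.39 and 11.5 CPM to the levels given above, a difference of -2.62 (standard error 0.284, adjusted p = 0.000408, edgeR), the largest among the 10 genes. Cdk6 had 16.9, 34.0 and 26.1 CPM at 135 min and fell by 1.35, and Ccnd3 had 136, 92.7 and 87.8 CPM and fell by 0.996. These 4 genes kept their calls in all 6 fits that left out a library. Cdk2 (-0.75, adjusted p = 0.0147), Cdk4 (0.45, adjusted p = 0.0193) and Cdkn1b (0.80, adjusted p = 0.0283) were called too (edgeR). Their calls were less firm: leaving out Tu 135 min replicate 2 or 3, or Tu 405 min replicate 2 or 3, left 4 members called, beside 27.9% to 36.0% of all genes in those fits. Ccne1 missed the threshold (-0.66, adjusted p = 0.0503, edgeR) and was called without Tu 135 min replicate 1 (-0.88).

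At the earlier tunicamycin times no member was called. For Tu 45 min, edgeR called 0 of 10 beside 6.17% of all genes tested. It had 4 members at an unadjusted p under 0.05, beside 3260 of the 12731 genes. DESeq2 called 2 members, beside 14.5% of all genes. Cyclin D3 was nearest to the threshold: Ccnd3 had 68.9, 67.6 and 83.4 CPM, below every reference library (log2 difference -0.61, adjusted p = 0.0534, edgeR). Ccne1, at 40.2, 36.2 and 25.2 CPM, also lay below the reference, though replicate 1 only just did (-0.64, adjusted p = 0.143), and Cdkn1b, at 57.0, 68.0 and 84.9 CPM, lay above it (0.63, adjusted p = 0.107). In 4 of the 10 genes the groups did not overlap, beside 33.2% of all genes tested, and the fourth was Ccnd1, with 458, 488 and 495 CPM. Without reference replicate 1, 4 members were called, Ccnd3 (-0.49) and Ccne1 (-0.81) among them, beside 19.6% of all genes.

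At 135 min of tunicamycin the set was close to the reference. edgeR called 0 members beside 0.134% of all genes tested. No member had an unadjusted p under 0.05, beside 2369 of the 12731 genes, and DESeq2 called 0 members, beside 5.22% of all genes. No member had groups that did not overlap, beside 27.3% of all genes tested. Ccne2 had the widest difference at 0.74 (95% interval -0.37 to 1.86), and its libraries overlapped the reference. Ccnd1, Ccnd3 and Ccne1, all below the reference in each library at 45 min, overlapped it at 135 min. Between these times, 0 members were called, beside 0.291% of all genes. At an unadjusted p under 0.05 were 3 members, beside 2010 of the 12731 genes. DESeq2 called 1, Ccne2, beside 4.85% of all genes. The differences from 45 to 135 min were 0.52 for Ccnd3 (adjusted p = 0.251) and 0.96 for Ccne2 (adjusted p = 0.208, edgeR), both without overlap. With Ccnd1 and Cdk4, these made 4 members whose groups did not overlap, beside 3097 of the 12731 genes.

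With HS no member passed the threshold in edgeR. Ccne1 and Cdk2 (lower) and Cdkn1b (higher) lay on the same side of the reference at 135 min of HS as at 405 min of tunicamycin. Ccnd3 lay above the reference at 135 min of HS and below it at 405 min of tunicamycin. Ccnd2 lay above it at 135 min of HS and overlapped it at 405 min of tunicamycin. HS at 135 min and tunicamycin at 405 min were not tested against each other. At 135 min of HS, edgeR called 0 members beside 7.39% of all genes tested. DESeq2 called 3 members (Ccnd3, Ccne1 and Cdkn1b), beside 17.0% of all genes. In edgeR, 5 members had an unadjusted p under 0.05, beside 3775 of the 12731 genes. The same 5 had groups that did not overlap, beside 37.2% of all genes.

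Ccnd3 had 154, 290 and 241 CPM at 135 min of HS, all above the reference, with a log2 difference of 1.02 (95% interval 0.40 to 1.64, adjusted p = 0.0563, edgeR). Ccnd2 had 420, 336 and 342 CPM, also all above the reference, with a difference of 0.71 (adjusted p = 0.100). Cdkn1b, at 64.3, 126 and 84.1 CPM, lay above the reference by 1.004 (adjusted p = 0.0751). Ccne1 and Cdk2 lay below it. Ccne1 had 30.6, 10.9 and 22.8 CPM, a difference of -1.32 (95% interval -2.21 to -0.44, adjusted p = 0.0702). Cdk2 had 24.7, 11.4 and 19.5 CPM, a difference of -0.97 (adjusted p = 0.111, edgeR). The second E cyclin, Ccne2, had 9.19, 1.29 and 5.70 CPM and reached past the reference (1.88 to 7.46 CPM) on both sides. Replicate 2 was the highest of the 3 for Ccnd3 and Cdkn1b and the lowest for Ccne1 and Cdk2. Without HS 135 min replicate 1, Ccnd3 (1.24), Ccne1 (-1.67) and Cdkn1b (1.20) were called, beside 19.4% of all genes, and without replicate 2 only Ccne1 was (-0.98), beside 9.71%.

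At 45 min of HS, edgeR called 0 members and 0% of all genes tested (0 of 12731, with 2480 at an unadjusted p under 0.05), and DESeq2 called 386 genes higher and 65 lower, none of them members. Cdkn1b, with 102, 117 and 60.4 CPM, was the only member whose libraries all lay on 1 side of the reference, beside 25.4% of all genes whose groups did not overlap. Its log2 difference was 1.03 (95% interval 0.32 to 1.73, adjusted p = 0.227, edgeR). Ccnd3 (184, 210 and 117 CPM) and Ccne1 (18.3, 20.5 and 53.7 CPM) overlapped the reference through replicate 3. Cdk2 did the same, with 18.9, 14.2 and 41.4 CPM. Replicate 3 is the HS 45 min library with the low Hspa1b level, though its Hsph1 and Dnajb1 levels were near those of replicate 1. Without replicate 3, 5 members were called, Ccnd3 (0.81), Ccne1 (-1.47), Ccne2 (-1.72), Cdk2 (-1.14) and Cdkn1b (1.26), beside 45.4% of all genes tested in that fit. On the full set, the 10 alternative settings gave 0.09 to 0.62 for Ccnd3 and -0.96 to -0.10 for Ccne1. They gave -0.81 to 0.39 for Ccne2, -0.66 to 0.08 for Cdk2 and 0.43 to 1.88 for Cdkn1b. Cdkn1b was called in 1 of these settings and the others in 0.

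Set against each other at the same time, HS and tunicamycin differed by no called member. At 45 min, edgeR called 0 members beside 0.204% of all genes tested. At an unadjusted p under 0.05 were 2 members, beside 3061 of the 12731 genes. DESeq2 called 1 member, beside 8.88% of all genes. Ccnd3 was higher in every HS library than in every Tu library at 45 min, by 1.22 (95% interval 0.64 to 1.80, adjusted p = 0.100, edgeR). Groups did not overlap in 4 of the 10 members (Ccnd1, Cdk4 and Cdkn2c besides Ccnd3), beside 3670 of the 12731 genes. Leaving out HS 45 min replicate 3 made 6 members called, with Ccnd3 at 1.43, beside 55.7% of all genes in that fit. At 135 min, 0 members were called beside 2.12% of all genes. At an unadjusted p under 0.05 were 3 members, beside 2543 of the 12731 genes. DESeq2 called 1 member, beside 9.87% of all genes. Here Ccnd3 again had the groups apart, with a difference of 1.09 (adjusted p = 0.0947), as did Ccnd2 at 0.65 (adjusted p = 0.179) and Ccne1 at -1.19 (adjusted p = 0.177, edgeR). With Cdk4, these made 4 of the 10 members without overlap, beside 3368 of the 12731 genes. Within HS, 0 members were called between 45 and 135 min and 0% of all genes. At an unadjusted p under 0.05 was 1 member, beside 1481 of the 12731 genes. DESeq2 called no member, beside 3.17% of all genes. Ccnd2, with a difference of 0.59, had groups that did not overlap, beside 2260 of the 12731 genes.

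The makeup of the D cyclins was followed in RPKM, which is scaled by library total. The summed RPKM of the 3 D cyclins was 222 ± 6.15 in the reference, 209 ± 6.03 at Tu 135 min and 100 ± 12.4 at Tu 405 min (SD, n = 3). HS at 135 min left this sum at 243 ± 4.64, with libraries from 238 to 247 above the reference's 215 to 228. The share of Ccnd1 in the sum, which does not depend on that scaling, went from 63.3% ± 5.39 in the reference to 45.2% ± 1.62 at HS 135 min and 48.2% ± 3.29 at Tu 405 min (SD, n = 3), and neither group overlapped the reference.

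The other D cyclins had higher shares at different stresses. At HS 135 min Ccnd3 took 34.9% ± 6.52, against 21.9% ± 2.29 in the reference, with no overlap, while Ccnd2 took 19.9% ± 5.23, overlapping the reference (14.9% ± 3.14; SD, n = 3). At Tu 405 min it was Ccnd2 that took more, 29.5% ± 2.60, above all reference libraries, with Ccnd3 at 22.2% ± 2.34, overlapping the reference. At Tu 45 min the Ccnd2 share was 21.2% ± 0.390, above all reference libraries.

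Ratios between partners stood apart from the reference at 405 min of tunicamycin as well. Cdk4 stood at 1.36 ± 0.261 times the summed D cyclins in the reference and at 3.70 ± 0.339 at Tu 405 min, and at the other times every library lay between 1.06 and 1.56. The ratio of Cdk4 to Cdk6 was 23.0, 58.3 and 55.5 in the reference and 108, 115 and 106 at Tu 405 min. Cdkn1b stood at 1.39, 1.11 and 1.21 times Cdk2 in the reference and at 4.22, 7.54 and 6.14 times at Tu 405 min. It stood at 1.76, 2.28 and 4.42 times Cdk2 at Tu 45 min and at 3.74, 1.54 and 1.35 times at Tu 135 min. Under HS this ratio was 2.48, 11.2 and 4.10 at 135 min and 5.47, 8.33 and 1.39 at 45 min. Replicate 3 of HS 45 min was again at the reference level. The Cdkn1b to Cdk2 ratio at Tu 405 min thus overlapped those of Tu 45 min and of both HS times. These sums, shares and ratios were not tested.

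**Figure D3:**
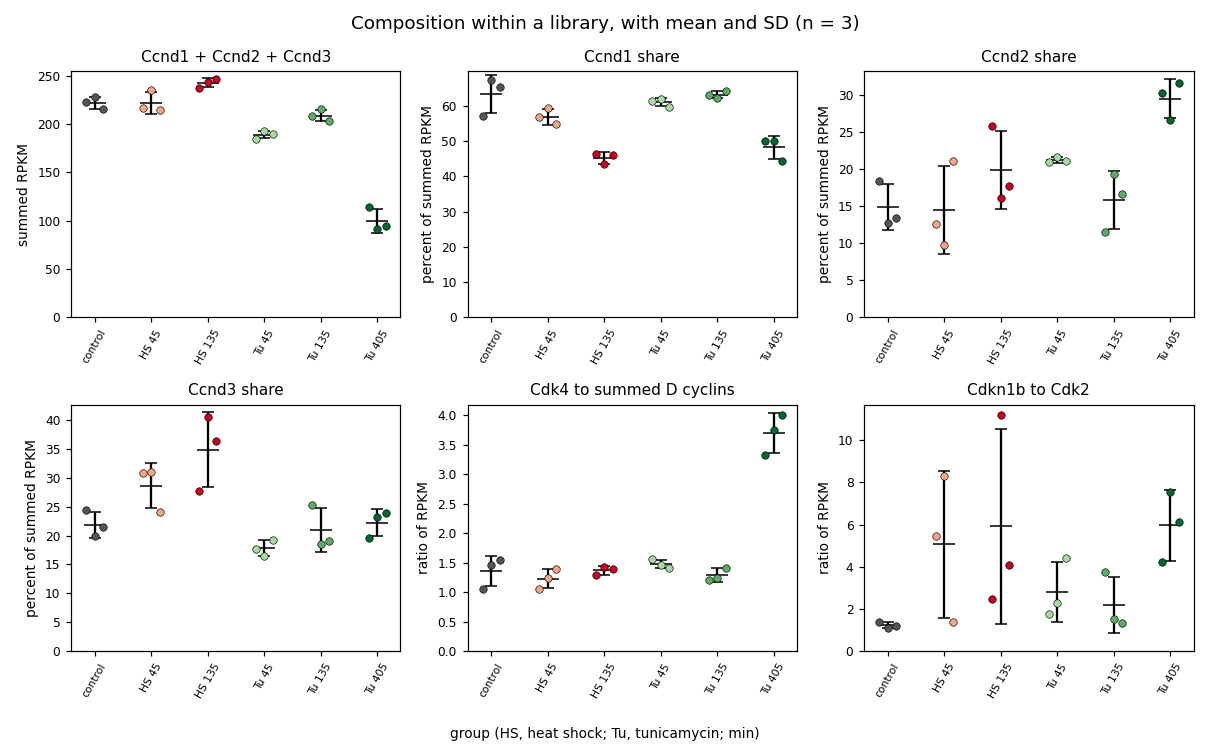
Summed RPKM of the 3 D cyclins, the share of each in that sum (percent), and the RPKM ratios of Cdk4 to the sum and of Cdkn1b to Cdk2, in each library (points) with the mean and SD (n = 3). The 405 min tunicamycin libraries lay below all others in the D cyclin sum and above all others in the Cdk4 ratio, and the Ccnd1 share was lowest there and at 135 min of HS.

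Part of the spread between libraries was common to several members. Over the 18 libraries, the deviation of a gene's log2 level from its group mean had a Pearson correlation with the library axis of -0.98 for Ccne1, -0.95 for Cdk2 and -0.88 for Ccne2, and of 0.96 for Ccnd3 and 0.83 for Cdkn1b. For Cdk4 (0.40) and Cdkn2c (0.31) it was weakest. All genes share the libraries and their depth, and the axis was computed from the same libraries, so these values describe the data without a test. The genes that lay higher in a library along the axis (Ccnd3, Cdkn1b) and those that lay lower (Ccne1, Cdk2) are those with the largest differences at 135 min of HS, but Ccne2, which also lay lower along the axis, had overlapping groups there. HS 135 min replicate 2 had the highest score of all 18 libraries. Scores were taken after group means were removed, so they place a library within its own group and do not compare groups. Transcript GC content was 58.4% for Ccnd3 and 43.1% for Cdkn1b, which lay on the same side of the axis, and 52.7% for Ccne1. With the GC offset, 3 members were called at HS 135 min: Ccnd2 (0.90), Ccnd3 (0.71) and Cdkn1b (1.78), beside 19.5% of all genes in that fit. Ccne1 (-1.30, adjusted p = 0.0527) and Cdk2 (-0.85, adjusted p = 0.0558) were just short of it (edgeR).

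**Figure D4:**
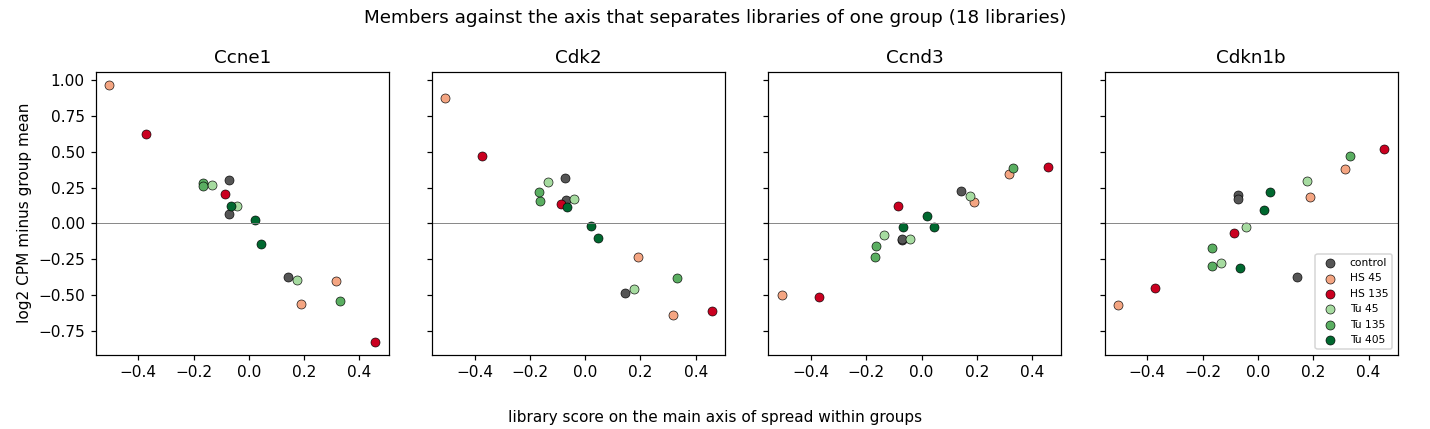
Deviation of the log2 CPM of Ccne1, Cdk2, Ccnd3 and Cdkn1b from the group mean (vertical axes) against the library's score on the main axis of spread within groups (horizontal axes, no unit), for the 18 libraries colored by group. Ccne1 and Cdk2 sloped down and Ccnd3 and Cdkn1b sloped up, and the Tu 405 min libraries had scores near 0 on the horizontal axis.

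Genes whose log2 CPM followed a member most closely over the 18 libraries were also looked up. Closest to Ccnd1 were Sdc4 (Pearson 0.98) and Uhrf1 (0.97), to Ccnd3 Mknk2 and Dusp3 (both 0.98), and to Cdkn1b Leng1 and Ddrgk1 (both 0.97). Ccne1 was followed by Tesk2 and Cdca5 (both 0.96), Cdk2 by Apaf1 (0.95) and Srl (0.94), Cdk6 by Nf1 and Scd1 (both 0.94), and Ccne2 by Ncoa7 (0.93) and Ifngr2 (0.92). Within the set, Ccne1 and Cdk2 had a correlation of 0.93, and Cdk2 and Cdkn1b one of -0.82. These are descriptions over libraries that share groups and the axis above.

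Other genes of the G1/S step were counted from a list of 32 regulators, of which 29 were tested. Of the remaining 3, Cdkn2a and Cdkn2b, inhibitors at a locus that NIH3T3 cells are known to lack, had 0 reads in all 18 libraries, which allows up to 3 reads or 0.0898 CPM in the library of least depth, and Cdkn1c, which encodes p57, had 1 read in all. At 405 min of tunicamycin, 5 of the 29 were induced and 13 repressed, beside the 23.3% and 23.5% of all genes given above. The largest changes were in E2f2 (-1.84) and E2f1 (-1.25), E2F factors that activate Ccne1 among other targets, in Cdk7 (1.24), the CDK-activating kinase, and in Cdkn2d (-1.23), which encodes p19, on the log2 scale. Cdkn2d was under 1 CPM in both groups. The median of the 29 was -0.39, beside -0.01 over all genes tested.

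At 135 min of HS, 2 of the 29 were called, a share close to the 7.39% of all genes, and both were higher: E2f2 (log2 fold change 1.37, adjusted p = 0.0300) and Cdkn1a (0.80, adjusted p = 0.0405), which encodes the CDK inhibitor p21 (edgeR). At 45 min of tunicamycin 1 was called, Cdkn2d (-1.67), beside 6.17% of all genes. Its level was low there too, with means of 0.188 CPM at Tu 45 min and 0.617 CPM in the reference. No gene of the 29 was called by edgeR at HS 45 min or at Tu 135 min. At an unadjusted p under 0.05 were 5 and 6 of them, beside 2480 and 2369 of the 12731 genes. E2f2 was thus above the reference at HS 135 min and below it at Tu 405 min, times that differ.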

How the data were processed

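Processed mRNA-seq files of 18 NIH3T3 libraries were analysed, 3 in each of 6 groups taken from the labels. Per the study's methods, the authors sequenced poly(A) RNA and used the DNAnexus platform for alignment (mm9) and for counting against RefSeq. The aligner, the counter and the use of strand are not given in the sources used here. The authors deposited an estimated count per gene, not normalized and partly not whole (17.7% to 23.2% of low values), and an RPKM value per gene. Both were joined by gene name over the 20207 genes of each file.

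Estimated counts were rounded to whole numbers. Each comparison was fitted on its 6 libraries by the quasi-likelihood method of edgeR 4.0.16 (R 4.3.3) after TMM scaling, and Benjamini-Hochberg adjustment covered the 12731 genes that had 1 read or more in all 18 libraries. A gene with an adjusted p under 0.05 was called. Standard errors came from each gene's fold change and its F statistic, and 95% intervals from the degrees of freedom of the fit. CPM values were scaled by TMM over all 18 libraries, so a ratio of means can differ from the fitted fold change. RPKM was used between genes, for shares and ratios within a library and for the summed D cyclins. A level of 3 reads was 0.0451 to 0.0898 CPM, which covers counting error only. No 2 libraries of a group were alike within counting noise.

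The 10 genes and the lists were chosen with earlier results of these data known. All 10 genes were named, with up to 4 called genes of the G1/S list in each comparison with the reference and the 2 genes most correlated with each called member. Fold changes are given where they were at least 0.5 on the log2 scale, called, or at 405 min of tunicamycin. Replicate numbers were checked for pairing by the correlation of same-numbered libraries' deviations from group means. For Tu 135 min against the reference all 3 correlations were above 0.1 (0.289, 0.240 and 0.197), and the fit with the replicate block called 0 members there, as without it. In the other 9 comparisons they were not.

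Alternatives were 2 other filters, library totals in place of TMM, size factors and the Wald test of DESeq2 1.42.0, 1 fit of all 6 groups, 1 surrogate variable (sva 3.50.0), the replicate block and leaving out each library. An offset for transcript GC content (lowess, span 0.3), alone and with the block, was added after seeing the data, and it also removes true differences that follow GC content. The edgeR fit was tested on simulated data with 200 changed genes. Other steps used Python 3.11.15, with promoter windows from RefSeq.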

Additional observations from a re-analysis of the deposited data

Results flagged for a closer look

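The 7 called differences between 135 and 405 min of tunicamycin stood out because levels under the same drug differed between times. They came from edgeR's test of the 2 times against each other. On the log2 scale they were -1.45 for Ccnd1, -0.996 for Ccnd3, -2.62 for Ccne2, -0.75 for Cdk2, 0.45 for Cdk4, -1.35 for Cdk6 and 0.80 for Cdkn1b. Both times were compared with the same 3 reference libraries, and the test here does not use those. Untreated libraries at these times were lacking, so drug and time in culture cannot be told apart. All 3 libraries at 405 min lay on 1 side of all 3 at 135 min for each of the 7 genes, which were picked by these calls. Over all genes, 7219 of 12731 had groups apart in this way. At 135 min of tunicamycin replicate 1 stood apart along the library axis, and without it 8 members were called, beside 63.8% of all genes in that fit.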

How the results depend on the processing

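At 405 min of tunicamycin, 5 to 8 members were called under all settings on the full set of libraries, beside 31.9% to 54.6% of all genes. When 1 library was left out, 7 to 9 were called, beside 31.9% to 62.0%. Against Tu 135 min, leaving out 1 library gave 4 to 8, beside 27.9% to 63.8% of all genes. The replicate block gave 4 beside 29.5% (6 beside 42.7% with the GC offset). In the comparisons where the main count was 0, DESeq2 called 3 members at HS 135 min, 2 at Tu 45 min and 1 each for Tu 135 against 45 min and for HS against Tu at 45 and at 135 min. Beside these, it called 17.0%, 14.5%, 4.85%, 8.88% and 9.87% of all genes, in that order. The GC offset called 3, 2, 1, 1 and 2 in the same order, and 1 at Tu 45 min with the replicate block. Over all genes these fits called 19.5%, 15.4%, 2.81%, 3.26% and 9.91%, and 4.90% with the block. With 1 surrogate variable the counts were 6 at HS 135 min, 4 at Tu 45 min, 1 at Tu 135 min, 4 for HS 135 against 45 min, 3 for Tu 135 against 45 min, 2 for HS against Tu at 45 min and 5 at 135 min. In those fits 39.4%, 25.8%, 21.4%, 26.2%, 11.7%, 15.4% and 34.2% of all genes were called, in that order. The shared fit of all groups called 1 at HS 45 min, 4 at HS 135 min, 1 for HS against Tu at 45 min and 2 at 135 min. It called 10.6%, 25.5%, 9.98% and 13.9% of all genes there, in that order. Leaving out 1 library gave 0 to 5 at HS 45 min, 0 to 3 at HS 135 min, 0 to 4 at Tu 45 min, 0 to 0 at Tu 135 min, 0 to 0 for HS 135 against 45 min, 0 to 1 for Tu 135 against 45 min, 0 to 6 for HS against Tu at 45 min and 0 to 1 at 135 min. The library behind the 5 and the 6 was HS 45 min replicate 3, and behind the 4 reference replicate 1. Tu 135 against 45 min had its 1 call, Ccne2, without Tu 135 min replicate 1, beside 1.71% of all genes. HS against Tu at 135 min had its 1, Ccnd3, without HS 135 min replicate 1, beside 2.86%.

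Signs turned for Ccne2 at HS 45 min (0.39 with the surrogate variable, 0.0044 with the GC offset and 0.0017 with the replicate block beside it), for Cdk2 at HS 45 min (0.0762 with the surrogate variable), for Ccnd2 at Tu 405 min (0.16 without reference replicate 1 and 0.03 without Tu 405 min replicate 2; range -0.20 to 0.16) and for Ccne1 between the HS times (0.11 without HS 45 min replicate 3; range -0.91 to 0.11), none of them called. The cause was not tested. Apart from Tu 135 min against the reference, same-numbered deviations did not all correlate above 0.1. With 3 libraries per group and 1 axis holding 74.0% of the within-group spread, this check cannot exclude pairing. The sources do not say whether replicates were paired. The block changed the number of members called in no comparison but Tu 405 against 135 min. For the 44 member fold changes recomputed under 10 settings, 379 values kept their direction and side of the threshold on the full set of libraries, 49 passed it, 8 fell short and 4 reversed. With 1 library left out these were 231, 17, 13 and 3. Over all genes, calls at HS 135 min numbered 605 higher and 336 lower in the main analysis, 1232 and 927 with DESeq2, 1488 and 929 with the GC offset, 2398 and 2618 with the surrogate variable, 1829 and 1414 in the shared fit and 0 with the block (2668 genes at an unadjusted p under 0.05). At HS 45 min they were 0 in the main analysis, 386 and 65 with DESeq2, 641 and 675 with the surrogate variable, 925 and 420 in the shared fit and 2737 and 3049 without HS 45 min replicate 3. At Tu 45 min they were 510 and 276, with 972 and 871 under DESeq2, 885 and 1027 with the GC offset, 1700 and 1580 with the surrogate variable and 21 and 0 with the block. At Tu 135 min they were 16 and 1, with 329 and 336 under DESeq2 and 1293 and 1433 with the surrogate variable. At Tu 405 min they were 2965 and 2995, with 2008 and 2049 in the shared fit. The lowest count of a member was 58 reads, for Ccne2, whose values carry the most counting error.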
